A study of Oryza sativa Japonica Group with 21 samples.

Results

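The chlorophyll synthesis genes of rice (Oryza sativa japonica, cultivar Zhonghua 15) examined here were GluTR, CHLD, CHLH, CHLI, PORA, PORB, CAO, CHLP and CHLG. Their probe sets were found by gene symbol or synonym in the annotation of an Affymetrix rice array. All 9 genes matched, with 10 probe sets in total, of 17905 genes that could be named and 57258 probe sets tested. RNA was measured on 21 arrays in 7 groups of 3: stamens at stages 2, 3, 4, 5 and 6, dissected from spikelets, the third leaf just after it had expanded, and the primordium of the third leaf, taken out of embryos after 2 to 3 days of soaking the seeds. The leaf served as the control organ because it is homologous to the stamen. All plants were of the 1 cultivar, with no mutant and no treatment, and were raised in a growth chamber at 30 ± 2 °C (days of 11 h, nights of 13 h) or in a field. Which samples came from where is not stated. The submitters called the 3 arrays of a group biological replicates. The labels do not say whether plants were pooled.

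Chlorophyll is built in the plastid from glutamate. GluTR, glutamyl-tRNA reductase, catalyses the committed step to 5-aminolevulinic acid, the precursor of both heme and chlorophyll. CHLH, CHLI and CHLD are the subunits of magnesium chelatase, which inserts magnesium into protoporphyrin and so commits it to chlorophyll: CHLH binds the porphyrin, while CHLI and CHLD form the ATP-hydrolysing part. These 4 genes are called early steps here. The 5 late steps are PORA and PORB, the light-dependent protochlorophyllide oxidoreductases, CAO, the oxygenase that makes chlorophyll b from chlorophyll a precursors, CHLP, the geranylgeranyl reductase that supplies the phytol tail, and CHLG, chlorophyll synthase, which attaches that tail.

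Levels are the deposited log2 values, so a difference of 1 is a 2-fold change. Levels of different probe sets are on different scales, and only differences between groups are compared across genes. A gene was called higher or lower where the adjusted p of limma, a linear model with variances moderated across all probe sets, was under 0.05 and the difference was at least 2-fold. Array medians lay between 5.82 and 5.88. Arrays of the same group correlated at r of 0.981 or more over all probe sets, except in expanded leaf, where r was 0.931 to 0.949. The mean of 5 stamen identity genes was 10.8 to 10.9 at stage 2 and 10.8 to 11.0 at stage 6, against 6.15 to 7.70 in expanded leaf and 6.07 to 6.31 in leaf primordium. The mean of 5 green leaf genes was 7.79 to 8.71 at stage 2, 7.12 to 7.66 at stage 6, 12.6 to 14.1 in expanded leaf and 6.84 to 6.97 in leaf primordium. Embryo and seed genes averaged 6.74 to 6.98 at stage 6, 6.66 to 8.13 in expanded leaf and 10.4 in leaf primordium. In whole-organ samples, fewer cells that express a gene and less RNA per cell cannot be told apart.

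The levels were first described gene by gene along the pathway. GluTR (probe set Os.11129.1.S1_at) was bright in every stamen array, with a lowest value of 10.34, a median of 10.96 and a highest value of 11.74. Its 3 expanded leaf arrays had 12.90, 10.14 and 11.20, and its 3 leaf primordium arrays 9.09, 9.21 and 10.33. Every stamen array was above every primordium array, though the lowest of the stamens and the highest of the primordia nearly met, while the expanded leaf arrays lay on both sides of the stamens. Expanded leaf had the highest group mean, 11.41 ± 1.40 (SD, n = 3), followed by stages 3, 4, 6, 5 and 2 (11.21 to 10.55) and leaf primordium (9.55 ± 0.68). Only the last neighbours in that order, stage 2 and leaf primordium, had arrays that did not overlap.

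CHLD (Os.14194.1.S1_at) had a lowest value of 7.83, a median of 8.07 and a highest value of 8.66 in stamens. Expanded leaf had 10.03, 8.69 and 9.03, all above the stamens. Leaf primordium had 7.63, 8.09 and 8.17 and overlapped the stamens. Stage means lay between 7.99 and 8.37, with stage 2 the highest of them.

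CHLH was measured by 2 probe sets that differed in direction. The brighter, Os.6595.2.S1_s_at, had a lowest value of 6.93, a median of 7.94 and a highest value of 8.52 in stamens. It had 3.78, 3.87 and 3.53 in expanded leaf, at a mean percentile of 13.4 on those arrays, and 8.12, 8.46 and 9.17 in leaf primordium. The dimmer, Os.6595.1.S1_a_at, had a lowest value of 4.97, a median of 5.43 and a highest value of 6.42 in stamens, 11.60, 8.96 and 7.70 in expanded leaf, and 6.34, 6.18 and 6.93 in leaf primordium. Expanded leaf was therefore below all other arrays by the brighter probe set and above all of them by the dimmer. In the array maker's naming, the suffix of the brighter probe set marks probes that can match more than 1 transcript, and that of the dimmer marks transcripts of 1 gene. By the rule used throughout, the probe set with the highest mean stood for the gene, and the values of the dimmer one are given beside it in the main comparisons.

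CHLI (Os.22677.2.S1_at) was dim, at mean percentiles between 27.4 in leaf primordium and 51.9 at stage 6. It had a lowest value of 4.67, a median of 5.63 and a highest value of 6.22 in stamens, 6.31, 5.57 and 5.30 in expanded leaf, and 4.41, 4.98 and 4.09 in leaf primordium. Its group means ran from 5.96 at stages 6 and 5, over expanded leaf and stages 3, 4 and 2, to 4.49 in leaf primordium, and the arrays of every pair of neighbours overlapped.

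PORA (Os.12363.1.S1_at), known mainly from dark-grown and very young tissue, had a lowest value of 5.76, a median of 6.19 and a highest value of 6.93 in stamens. It had 10.95, 5.86 and 5.58 in expanded leaf and 5.69, 5.70 and 6.00 in leaf primordium. A single expanded leaf array, replicate 1, was thus far above everything else, and the other 2 lay at the level of the primordium. PORB (Os.9230.1.S1_x_at), known from green leaves, had a lowest value of 5.95, a median of 6.49 and a highest value of 7.57 in stamens. Its 3 expanded leaf arrays, with 11.66, 8.54 and 5.51, reached from the highest value of all 21 arrays to the lowest. Leaf primordium had 7.54, 7.56 and 6.997, within the range of the expanded leaf arrays.

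CAO (Os.22029.1.S1_a_at) had a lowest value of 7.08, a median of 8.54 and a highest value of 9.51 in stamens, 12.60, 11.09 and 11.22 in expanded leaf, and 9.15, 9.25 and 9.70 in leaf primordium. Its group means descended from expanded leaf over leaf primordium and then through stages 2, 3, 4, 5 and 6, and only expanded leaf was separate from its neighbour. CHLP (Os.10275.1.S1_at) had a lowest value of 5.57, a median of 7.17 and a highest value of 7.87 in stamens, 12.37, 10.54 and 9.75 in expanded leaf, and 8.82, 8.95 and 8.90 in leaf primordium. The 3 kinds of sample did not overlap for this gene. CHLG (Os.11399.1.S1_at) was the steadiest in stamens, with a lowest value of 10.55, a median of 10.81 and a highest value of 11.07. It had 9.17, 8.76 and 10.96 in expanded leaf and 9.57, 9.92 and 9.77 in leaf primordium, so all stamen arrays were above the primordium and expanded leaf replicate 3 was level with the stamens.

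**Figure D1:**
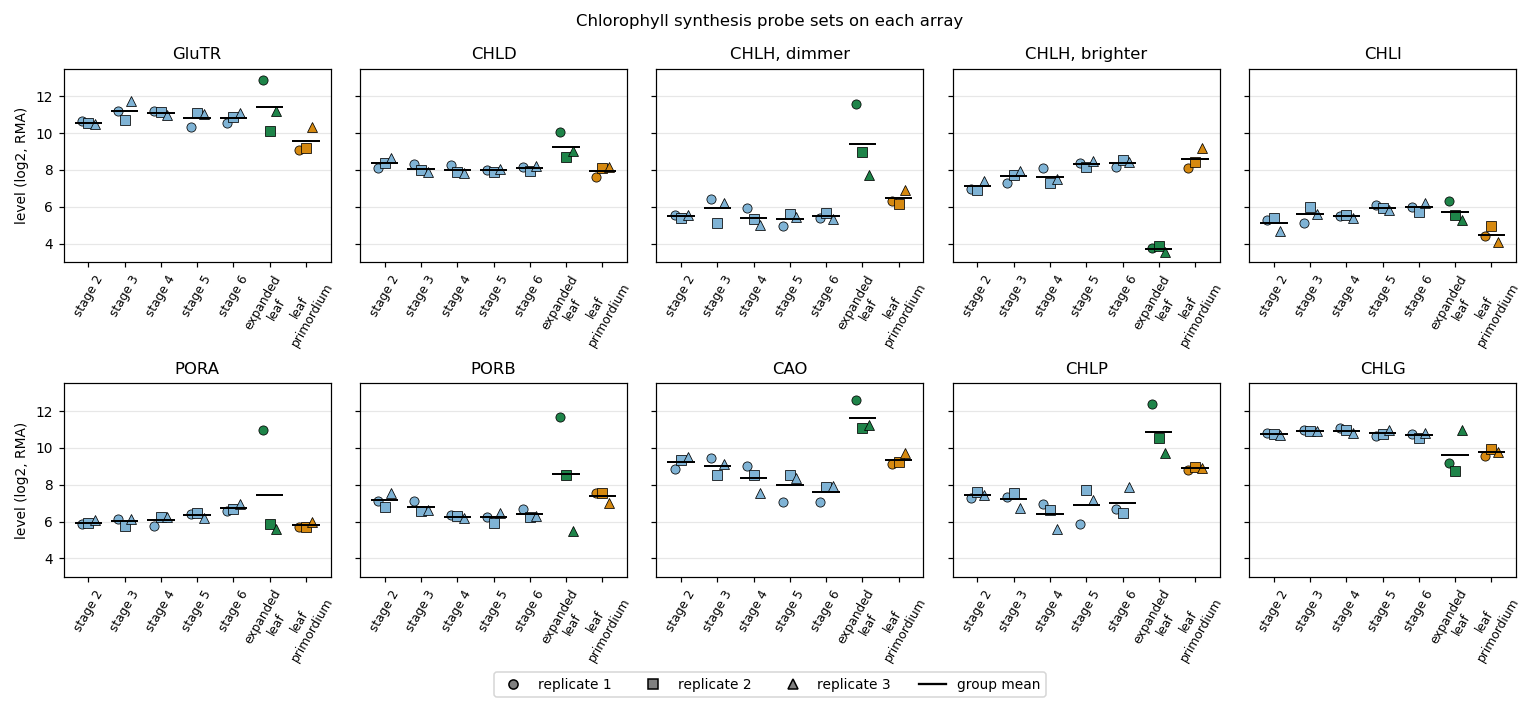
Level (log2) of the 10 chlorophyll synthesis probe sets on each of the 21 arrays. Points are arrays, with a symbol for each replicate number, and bars are group means. The arrays of expanded leaf spread most, from 5.51 to 11.66 for PORB, and the 2 CHLH probe sets place expanded leaf at opposite ends.

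The comparison of stamens with the expanded leaf asked how far the pathway in a young floral organ was from that of a green leaf. Of the 9 genes, 4 were lower in stamens, 3 of them late steps. CHLP was lower by 14.9-fold (log2 difference -3.89, SE 0.439, adjusted p = 8.05e-07, limma), CAO by 9.07-fold (-3.18, SE 0.350, adjusted p = 5.93e-07), PORB by 4.02-fold (-2.01, SE 0.690, adjusted p = 0.0234) and CHLD by 2.22-fold (-1.15, SE 0.200, adjusted p = 0.00012). Of all probe sets, 9.97% were lower. CHLG was higher in stamens by 2.29-fold (1.19, SE 0.269, adjusted p = 0.00134), and CHLH was higher through its brighter probe set (4.10, SE 0.192, adjusted p = 6.01e-12). The size of that difference is uncertain, since all 3 expanded leaf values lay below 4.34, the 25th percentile of all values. Of all probe sets, 13.3% were higher. Through its dimmer probe set CHLH was lower in stamens by 14.9-fold (-3.90, SE 0.490, adjusted p = 3.07e-06), which makes 5 lower and 1 higher. The mean of both gave a difference of 0.10 (adjusted p = 0.795).

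GluTR (-0.51, 95% interval -1.31 to 0.30), CHLI (-0.10, -0.55 to 0.35) and PORA (-1.24, -2.65 to 0.18) did not pass the test, with adjusted p of 0.287, 0.714 and 0.139 from limma. The median difference was -0.30 over the 4 early steps, or -0.83 with the dimmer CHLH probe set, and -2.01 over the 5 late steps, against -0.08 over all probe sets. Expanded leaf replicate 1 carried part of this: without it PORB differed by -0.46 (adjusted p = 0.453) and CHLD by -0.76, under 2-fold. PORB lost its call also without replicate 2, GluTR was lower without replicate 2 (-1.14, adjusted p = 0.0143), PORA was lower without replicate 2 or 3 (-2.04 and -2.18), and CHLG was under 2-fold without replicate 1 or 2 (0.96 and 0.76). Without replicate 1, by contrast, the differences of GluTR and PORA turned positive (0.24 and 0.51), and neither was called.

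The primordium of the third leaf, in which the mean of the green leaf genes was 6.84 to 6.97, allowed the stamens to be set against a leaf organ before expansion. Against it 3 genes were higher in stamens, of which GluTR and CHLI are early steps. GluTR was 2.57-fold higher (log2 difference 1.36, SE 0.379, adjusted p = 0.00985, limma), CHLI 2.19-fold (1.13, SE 0.214, adjusted p = 0.000434) and CHLG 2.10-fold (1.07, SE 0.269, adjusted p = 0.00478). Of all probe sets, 7.59% were higher. The size of the CHLI difference is uncertain, since its primordium values of 4.41, 4.98 and 4.09 lay near 4.34, the 25th percentile of all values. CHLP alone was lower, by 3.72-fold (-1.90, SE 0.439, adjusted p = 0.00255), beside 6.71% of all probe sets. GluTR and CHLG were higher in 15 of 15 stamen arrays than in any primordium array, and CHLP was lower in 15 of 15. How many of all probe sets separated in this way was not counted.

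CAO had a difference of -0.91 (adjusted p = 0.057), PORB of -0.80 (adjusted p = 0.433), PORA of 0.44 (adjusted p = 0.689) and CHLD of 0.14 (adjusted p = 0.666) in limma. CHLH fell by 0.76 on the log2 scale through its brighter probe set, less than 2-fold (adjusted p = 0.0048), and had -0.95 through the dimmer (adjusted p = 0.162). The median difference was 0.63 over the early steps with either CHLH probe set and -0.80 over the late steps, against -0.03 over all probe sets. The 2 sets of steps overlapped, since the early gene CHLH had a negative difference and the late genes CHLG and PORA positive ones. The spread of the expanded leaf arrays entered these errors. In a fit of the stamen and primordium arrays alone the same 4 genes were called, CHLG with SE 0.0883, and PORA (0.44, adjusted p = 0.00804), PORB (-0.80, adjusted p = 0.000911), CAO (-0.91, adjusted p = 0.0287) and the dimmer CHLH (-0.95, adjusted p = 0.00386) passed the significance threshold at under 2-fold. Without leaf primordium replicate 1 or 2 GluTR was no longer called (1.13 and 1.20, adjusted p = 0.0821 and 0.0711). CHLI fell under 2-fold without replicate 3 (0.93) and CHLG without replicate 1 (0.98). With array weights CHLI (0.76) and CHLG (0.96) were under 2-fold. CHLG was also under 2-fold (0.71, adjusted p = 0.0202) with the 3′ minus 5′ signal difference of the control probe sets, described with the expanded leaf arrays, as a covariate.

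Between the leaf samples, 5 of the 9 genes were higher in the expanded leaf than in the primordium. CAO was higher by 4.82-fold (log2 difference 2.27, SE 0.452, adjusted p = 0.000583, limma), CHLP by 3.99-fold (2.00, SE 0.567, adjusted p = 0.00981), GluTR by 3.65-fold (1.87, SE 0.490, adjusted p = 0.0056), CHLD by 2.44-fold (1.29, SE 0.259, adjusted p = 0.000629) and CHLI by 2.35-fold (1.23, SE 0.276, adjusted p = 0.0016). Of all probe sets, 9.84% were higher. CHLH was lower through its brighter probe set (-4.86, SE 0.247, adjusted p = 4.08e-11, with the same uncertainty in size), beside 12.8% of all probe sets, and higher by 7.69-fold through the dimmer (2.94, SE 0.633, adjusted p = 0.00115). With the dimmer probe set, 6 genes were higher and 0 lower, the 4 early steps among them. The size of the CHLI difference is uncertain here too, given its dim primordium values. CHLG did not pass the test (-0.12, 95% interval -0.86 to 0.61), nor did PORA (1.67, -0.16 to 3.50) or PORB (1.20, -0.68 to 3.09), with adjusted p of 0.838, 0.157 and 0.341.

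The median difference was 1.26 over the early steps (1.58 with the dimmer CHLH probe set) and 1.67 over the late steps, against 0.04 over all probe sets. When only the 6 leaf arrays were fitted, CAO was the only gene called higher (adjusted p = 0.0131), and the values of GluTR, CHLD, CHLI and CHLP ran from adjusted p = 0.0503 to 0.143. Without expanded leaf replicate 1, CHLD (0.90), CHLI (0.94) and CHLP (1.25, adjusted p = 0.0674) were no longer called, while without replicate 3 PORA (2.61, adjusted p = 0.0211) and PORB (2.73, adjusted p = 0.000754) were. The calls of PORA and PORB included replicate 1, without which they had -0.07 and -0.34, neither called.

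**Figure D2:**
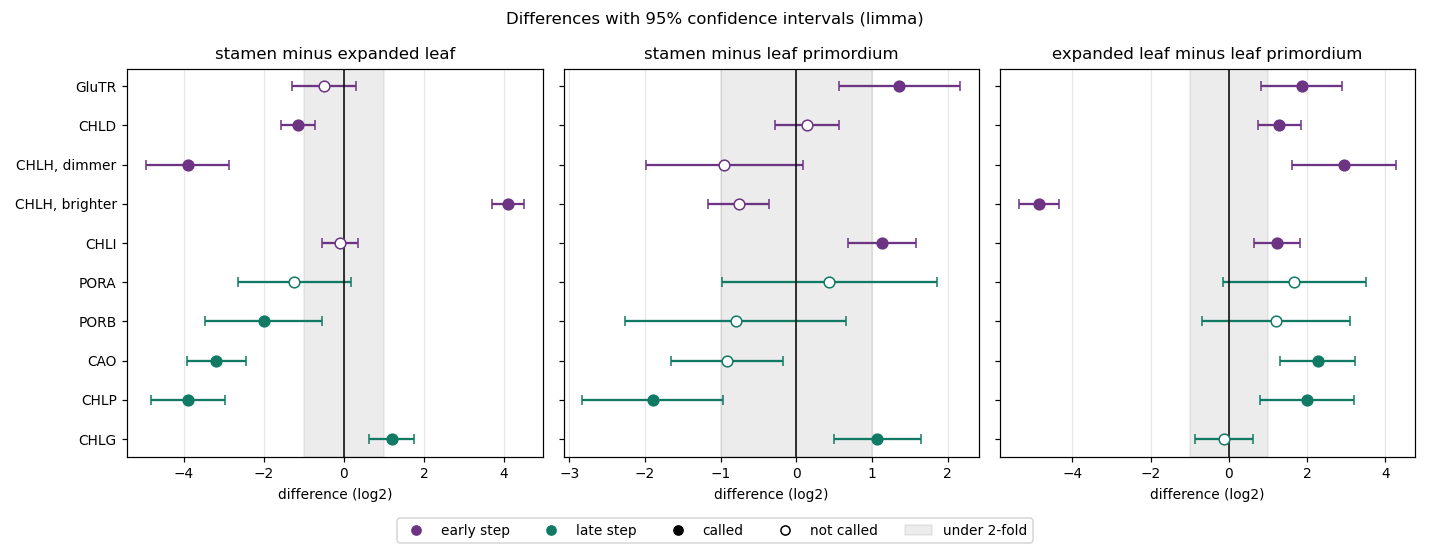
Log2 differences of the 10 probe sets in 3 comparisons, in pathway order from GluTR at the top to CHLG at the bottom, with 95% confidence intervals from limma. Filled points were called, open ones were not, and the grey band marks less than 2-fold. Each panel has its own axis. CHLP and CAO lie far left against expanded leaf, CHLG lies right of 0 in both stamen comparisons, and the CHLH probe sets lie on opposite sides of 0 in the first and the last panel.

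The 3 expanded leaf arrays were the main source of spread, and they differed in an ordered way. Replicate 1 was the highest of the 3 for 8 of the 10 synthesis probe sets, against 34.6% of all probe sets, and the exceptions were CHLG and the brighter CHLH. Replicate 1 was also the highest for 10 of 12 probe sets of the green leaf genes. For chlorophyll breakdown the order was another. SGR, the stay-green protein that removes magnesium from chlorophyll, had 6.66, 10.85 and 10.63 in replicates 1, 2 and 3, and RCCR, red chlorophyll catabolite reductase, had 9.33, 12.54 and 10.92. NYC1, a chlorophyll b reductase subunit, had 9.06, 11.60 and 10.10. All 3 were lowest in replicate 1, where PORA, PORB, CAO and CHLP were highest. NOL, the partner of NYC1, had 10.33, 10.93 and 8.94 and was lowest in replicate 3. Of the 6 breakdown probe sets, 4 were lowest in replicate 1, against 29.7% of all probe sets. All 6 were highest in replicate 2, against 32.2% of all probe sets. The 3′ minus 5′ signal difference of the actin and GAPDH control probe sets, which grows with RNA degradation or short amplification products, was 1.73, 1.96 and 3.37 in replicates 1, 2 and 3, against 1.64 to 1.90 in leaf primordium. With that difference as a covariate, PORA (2.48, adjusted p = 0.0292, limma) and PORB (2.25, adjusted p = 0.0317) were called higher in expanded leaf than in leaf primordium. Replicates 1 and 2, whose 3′ minus 5′ differences were close, had PORA at 10.95 and 5.86 and PORB at 11.66 and 8.54. The slope of the covariate was fitted over all 21 arrays, among them stamen stage 2 with 3.19 to 3.41. Whether RNA quality hid a difference was not tested. With 3 arrays the order of replicates is a description.

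**Figure D3:**
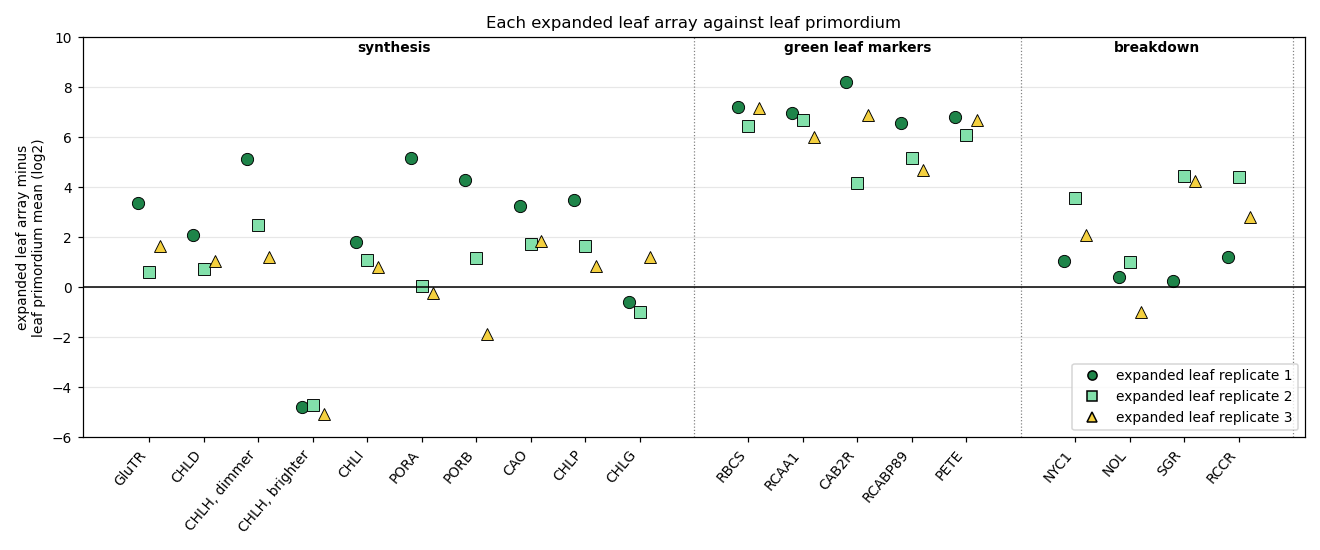
Level of each expanded leaf array minus the mean of the 3 leaf primordium arrays (log2) for synthesis genes, green leaf genes and breakdown genes. The symbols are the 3 replicates. In replicate 1 most synthesis genes stand highest, PORA and PORB furthest apart from the other replicates, while SGR, RCCR and NYC1 stand lowest.

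The stamen stages were then compared with each other. Between stages 6 and 2, 1 gene was higher and 1 lower. CHLH, by its brighter probe set, had 8.18, 8.52 and 8.45 at stage 6 and 6.96, 6.93 and 7.41 at stage 2, a 2.43-fold difference (log2 1.28, SE 0.247, adjusted p = 0.00173, limma), beside 4.4% of all probe sets. Its dimmer probe set had a difference of -0.01 (adjusted p = 0.994). CAO had 7.09, 7.87 and 7.91 at stage 6 and 8.85, 9.32 and 9.51 at stage 2, 3.05-fold lower (-1.61, SE 0.452, adjusted p = 0.0213), beside 3.47% of all probe sets. CAO had stage means of 9.23, 9.04, 8.37, 7.99 and 7.62 from stage 2 to stage 6, each below the one before.

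CHLI had 5.97, 5.71 and 6.22 at stage 6 and 5.29, 5.41 and 4.67 at stage 2, a difference of 0.84 that passed the significance threshold at under 2-fold (adjusted p = 0.0468, limma). PORA had 6.59, 6.70 and 6.93 at stage 6 and 5.84, 5.90 and 6.07 at stage 2, and its stage means were 5.94, 6.01, 6.11, 6.35 and 6.74 from stage 2 to 6. PORB, the other reductase, had 6.70, 6.23 and 6.29 at stage 6 and 7.12, 6.80 and 7.57 at stage 2. The arrays of stages 6 and 2 did not overlap for either gene, with stage 6 above stage 2 for PORA and below it for PORB. The share of all probe sets that separated likewise was not counted. The differences of 0.80 and -0.76 did not pass the test (adjusted p = 0.645 and 0.678, limma). Their SE of 0.866 and 0.891 included the spread of the expanded leaf arrays. The median difference was 0.56 over the early steps, 0.14 with the dimmer CHLH probe set, and -0.46 over the late steps, against -0.03 over all probe sets.

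Over the 5 stages together the F test of limma called 1 gene, CHLH by its brighter probe set (range of stage means 1.28, adjusted p = 0.00707), beside 7.23% of all probe sets. In a fit of the 15 stamen arrays alone, CHLH (adjusted p = 0.00241) and CAO (range 1.61, adjusted p = 0.0444) were called, beside 9.94% of all probe sets. PORA (adjusted p = 0.00959), PORB (adjusted p = 0.0165) and CHLI (adjusted p = 0.044) then passed the significance threshold with ranges of 0.80, 0.94 and 0.84. Stage 2 arrays had a 3′ minus 5′ difference of 3.19 to 3.41, against 1.27 to 2.69 for stages 3 to 6. With that difference as a covariate, CHLH differed by 0.82 between stages 6 and 2 (adjusted p = 0.212) and CAO by -2.42 (adjusted p = 0.0413). PORA then had -1.32, against 0.80 without the covariate, GluTR -0.60, PORB -3.49, CHLG 1.11 and the dimmer CHLH -2.08. None of these was called, and the signs of PORA, GluTR and CHLG differed from those without the covariate. The slope of the covariate was fitted over all 21 arrays, among them the expanded leaf arrays with 1.73, 1.96 and 3.37. Stage 2 did not overlap the later stages in the 3′ minus 5′ difference, so the values with the covariate cannot separate stage from that difference. CAO lost its call without stage 2 replicate 2, stage 2 replicate 3 or stage 6 replicate 1 (adjusted p = 0.0619, 0.0789 and 0.0954).

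Against the mean of stages 3 to 6, stage 2 had 0 genes called in either direction in limma. Of all probe sets, 2.15% were called higher and 2.2% lower. At an unadjusted p under 0.05 there were 3 genes, beside 24.8% of all probe sets. CHLH (brighter, -0.90, adjusted p = 0.00479) was lower at under 2-fold, and CHLI and CAO had -0.63 and 0.97 (adjusted p = 0.0689 and 0.0876). Between consecutive stages 0 of 9 genes were called in limma. At an unadjusted p under 0.05 there were 1, 0, 1 and 0 genes for stages 3 minus 2, 4 minus 3, 5 minus 4 and 6 minus 5. The shares of all probe sets at that unadjusted p were 14.2%, 4.91%, 6.14% and 5.83%. Of all probe sets, 0.824% were called higher and 0.721% lower at stage 3 relative to stage 2. These shares were 0.00524% and 0.00175% for stages 4 minus 3, 0.0367% and 0.00699% for stages 5 minus 4, and 0% in both directions for stages 6 minus 5.

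**Figure D4:**
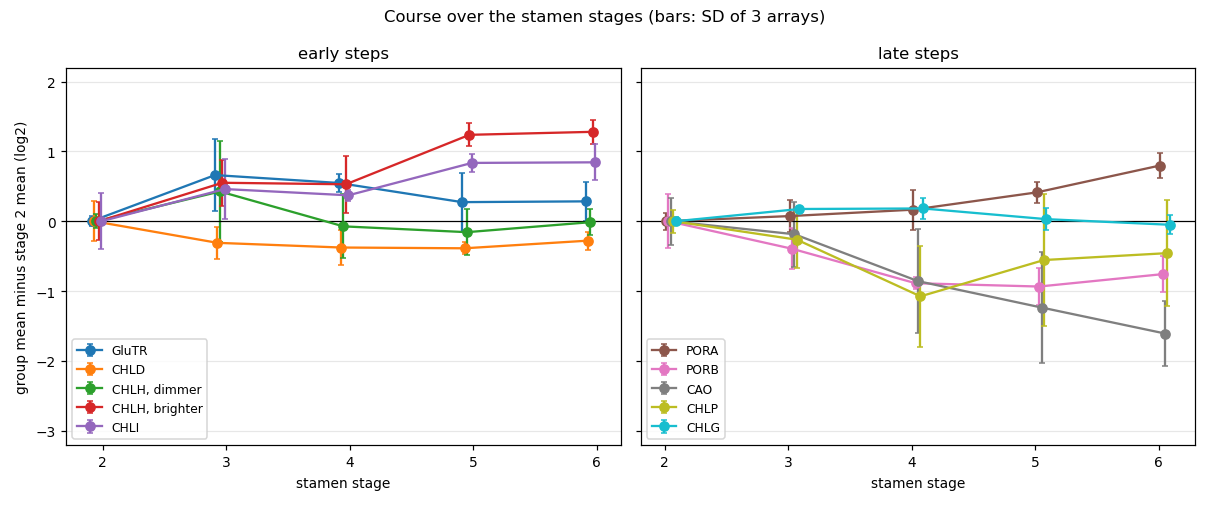
Mean of each stamen stage minus the stage 2 mean (log2) for early steps on the left and late steps on the right. Bars are the SD of 3 arrays. CHLH by its brighter probe set and CHLI end above stage 2 (1.28 and 0.84). PORA ends at 0.80, PORB at -0.76 and CAO at -1.61, while CHLG ends at -0.05. With the 3′ minus 5′ covariate, whose slope was fitted over all 21 arrays, PORA had -1.32.

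Each stage was also set against leaf primordium. Differences between stages in these calls were tested only in the comparisons of stages above. At stage 2, CHLG was higher (1.00, adjusted p = 0.0406, limma) and CHLH lower by its brighter probe set (-1.48, adjusted p = 0.000179) but not called by its dimmer (-0.99, adjusted p = 0.301), beside 7.83% of all probe sets higher and 7.59% lower. At stage 3, GluTR (1.67), CHLI (1.09) and CHLG (1.18) were higher and CHLP lower (-1.69), beside 7.41% and 6.31%. At stage 4, GluTR (1.56) and CHLG (1.19) were higher and CHLP lower by 5.66-fold, beside 7.37% and 6.73%. At stage 5, CHLI (1.46) and CHLG (1.03) were higher and CAO (-1.37) and CHLP (-1.98) lower, beside 8.14% and 6.46%. At stage 6, CHLI was higher (1.47) and CAO (-1.74) and CHLP (-1.88) lower, beside 8.16% and 6.66%. CAO, which makes chlorophyll b, was thus called lower than in leaf primordium at stages 5 and 6. At stages 2, 3 and 4 it had -0.13, -0.32 and -0.99 (adjusted p = 0.887, 0.694 and 0.142, limma). No step between consecutive stages was called for it, so no stage of onset is given.

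Against expanded leaf most calls were shared by all stages. CHLG and the brighter CHLH were higher and CAO and CHLP lower at each of the 5 stages, and the dimmer CHLH probe set was lower at each. CAO had differences of -2.40, -2.59, -3.26, -3.64 and -4.01 from stage 2 to stage 6, and CHLP had -3.42, -3.69, -4.498, -3.98 and -3.88. CHLD was called lower at stages 3 to 6 (-1.16 to -1.27). At stage 2 its difference of -0.88 passed the significance threshold at under 2-fold (adjusted p = 0.0126, limma). PORB was called lower at stage 5 (-2.35, adjusted p = 0.0427). Of all probe sets, 12.5% were higher and 9.49% lower at stage 2. For stage 3 these shares were 13.2% and 9.61%, for stage 4 they were 13.1% and 9.8%, for stage 5 they were 14% and 9.92%, and for stage 6 they were 14.4% and 10.3%. All these comparisons share the 3 arrays of each leaf sample.

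Other genes of the pathway were read from lists of names. Of 4 genes for other steps between glutamate and protoporphyrin that had a probe set, ALAD, aminolevulinate dehydratase, was lower in stamens than in expanded leaf (-1.53, SE 0.188, adjusted p = 2.29e-06, limma). PPOX, protoporphyrinogen oxidase, was lower in stamens than in leaf primordium (-1.29, SE 0.379, adjusted p = 0.0136). ALAD was higher (2.84-fold) and PPOX lower (4.65-fold) in expanded leaf than in leaf primordium. GSA and UROS were called in none of these 3 comparisons. HO1 and HO2, listed as heme oxygenases of the heme branch, differed in sign. HO1 was lower in stamens than in expanded leaf (-2.92, adjusted p = 1.35e-10, limma) and HO2 higher (2.05, adjusted p = 5.13e-05). HO2 had 6.80, 8.04 and 5.21 in expanded leaf and a lowest value of 7.89 in stamens, so the arrays overlapped.

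Of the 4 breakdown genes, stamens had 3 below expanded leaf and 0 called against leaf primordium, with medians of -2.10 and -0.15. Of all probe sets, 9.97% were lower than in expanded leaf, and 7.59% higher and 6.71% lower than in leaf primordium. The medians over all probe sets were -0.08 and -0.03. SGR was lower by 9.74-fold (-3.28, SE 0.545, adjusted p = 7.15e-05, limma), RCCR by 7.03-fold (-2.81, SE 0.364, adjusted p = 4.31e-06) and NYC1 by 2.63-fold (-1.40, SE 0.328, adjusted p = 0.00188). The same 3 genes were higher in expanded leaf than in leaf primordium, by 2.98, 2.81 and 2.24, beside 9.84% of all probe sets. In expanded leaf replicate 1, SGR (6.66) and NYC1 (9.06) lay within the range of the stamen arrays (5.52 to 7.10 and 8.15 to 9.59). Of 5 regulators, GLK1 and GLK2, transcription factors that activate chlorophyll synthesis and light-harvesting genes, had 4.93 ± 0.72 and 4.35 ± 0.59 in stamens (SD, n = 15), against 7.44 ± 0.75 and 7.35 ± 0.19 in leaf primordium (SD, n = 3 each), and both were lower in stamens (adjusted p = 7.67e-07 and 4.05e-08, limma). GLK2 had 4 probe sets, and these values are of the one with the highest mean (log2 difference -3.00 from leaf primordium). The others had -1.96 and -1.12, both called lower, and -0.26 (adjusted p = 0.208, limma), not called. The phytochrome genes PHYA, PHYB and PHYC were not called in either stamen comparison by the probe set that stood for each. At under 2-fold, PHYA passed the significance threshold against leaf primordium (0.60, adjusted p = 0.0361, limma) and expanded leaf (0.76, adjusted p = 0.00648). PHYB did so against leaf primordium (0.76, adjusted p = 0.00655). The other PHYA probe set was called higher than in expanded leaf (1.08, adjusted p = 0.00739) but not against leaf primordium (0.59, adjusted p = 0.166). GLK1 was higher at stage 6 than at stage 2 (1.45, SE 0.342, adjusted p = 0.00726, limma). Its stage 2 mean of 4.70 and the GLK2 stamen mean of 4.35 lay near 4.34, the 25th percentile of all values. The sizes of these differences are therefore uncertain. As stage 2 did not overlap the later stages in the 3′ minus 5′ difference, stage and that difference cannot be told apart for GLK1.

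The patterns over the 7 group means were set beside those of 1316 named probe sets whose group means ranged over at least 2 on the log2 scale. As a description over 7 means, which the expanded leaf mean dominates, the closest by Pearson's r was FDRMADS8 for GluTR (0.979), OsC3H12 for CHLD (0.998), ORR2 for CHLI (0.947), APX2 for PORA (0.993), BIPP2C1 for PORB (0.990), MS for CAO (0.992), osysl6 for CHLP (0.995) and JAZ10 for CHLG (0.998). For CHLH it was KIN5A by the brighter probe set (0.996) and NRAMP4 by the dimmer (0.9995). CAB2R, a chlorophyll-binding protein of the antenna, was the second closest to CHLD (0.996).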

How the data were processed

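Total RNA (50 to 300 ng) was amplified through 2 cycles and labelled with biotin, per the labels' protocols. The authors deposited 1 log2 value for each probe set and array, computed by RMA per the submitters' processing notes, which give no version. These values were used as deposited, with no filter on low values, so all 10 probe sets were tested. After 123 control probe sets were left out, 57258 remained, and a platform annotation updated through assembly ASM3414082v1 named 1 gene for 22436, several for 95 and none for 34727. The assembly served for names only, so no positions are given. The number of arrays limits the precision.

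One limma model (limma 3.58.1, R 4.3.3) with 7 group means was fitted to all 21 arrays. Tests were two-sided, with Benjamini-Hochberg adjustment over all probe sets, an adjusted p threshold of 0.05 and a minimum difference of 2-fold. A simulation over 57258 probe sets used 1 SD per probe set, shared by all 7 groups. In the comparison of stamens with leaf primordium, 93 of 100 changes of 1.5 (log2) and 99 of 100 changes of 3 were recovered. There were 3 false calls among the other probe sets. The wider spread of the expanded leaf arrays was not simulated, so these rates need not hold for genes with that spread. The members, the lists and the division into early and late steps were chosen with earlier results of these data known. The members were always named, and the 3 genes nearest in pattern were found for each.

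The lists found probe sets for 4 genes of other steps, 2 heme oxygenases, 4 breakdown genes, 5 regulators and 7 sets of marker genes. The markers not given with the results had these means at stage 2, at stage 6, in expanded leaf and in leaf primordium. Carpel and ovule genes had 6.17, 5.98, 5.89 and 6.16, tapetum genes 4.85, 7.54, 4.82 and 4.34, meristem genes 7.20, 6.49, 6.08 and 6.58, and glume genes 8.50, 8.41, 6.63 and 6.03. Alternatives were another normalization, filters, variance settings, array weights, subsets of arrays, other thresholds, other probe set choices, a replicate block and the 3′ minus 5′ covariate.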

Additional observations from a re-analysis of the deposited data

How the results depend on the processing

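Of 1806 values of single probe sets under other settings, 1761 kept their call or lack of one, among them 28 that changed sign and were called in neither setting. A further 29 lost a call, 14 gained it, and 2 that were called changed sign. These 2 were the dimmer CHLH probe set when both CHLH probe sets were averaged: 0.10 for stamens against expanded leaf and -0.96 for expanded leaf against leaf primordium, values shared by the brighter one. With the CHLH probe sets averaged, or with the dimmer one, which was chosen after seeing the data, 1 gene was higher in stamens than in expanded leaf, 0 were lower in expanded leaf than in leaf primordium, 0 were higher at stage 6 than at stage 2 and 0 changed over the stages. With array weights 1 gene was above leaf primordium in stamens and 2 changed over the stages. The fit of only the compared groups gave 1 gene higher in expanded leaf than in leaf primordium and 2 that changed over the stages. With the 3′ minus 5′ covariate 0 were higher at stage 6 than at stage 2 and 0 changed over the stages. Without a fold threshold 2 genes were lower in stamens than in leaf primordium, 2 higher at stage 6 than at stage 2 and 1 lower at stage 2 than at the later stages, and at adjusted p under 0.01 0 were lower at stage 6. The cause of these changes was not tested, apart from those that follow from the setting itself. CHLI gave no value where only probe sets above the median mean were kept.

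With 1 array left out at a time, 1 to 3 genes were higher and 1 lower in stamens than in leaf primordium, 1 to 2 higher and 2 to 5 lower in stamens than in expanded leaf, and 2 to 7 higher and 1 lower in expanded leaf than in leaf primordium. At stage 6, 1 was higher and 0 to 1 lower than at stage 2. At stage 2, 0 were higher and 0 to 1 lower than at the later stages, and 1 to 2 changed over the stages. With the replicate number as a block all these counts, CHLH by its brighter probe set as in those above, were as without it: 3 higher and 1 lower against leaf primordium, 2 and 4 against expanded leaf, 5 and 1 between the leaf samples, 1 and 1 between stages 6 and 2, 0 and 0 for stage 2, and 1 over the stages. Same-numbered arrays correlated in their deviations at a mean r of 0.0135 (-0.43 to 0.48), and 9 of 21 arrays were closest to their own number.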
